A study of Bos taurus with 8 samples.

Results

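The nuclear lamina genes LMNA, LMNB1 and LMNB2 and their inner nuclear membrane and chromatin partners EMD, LBR and BANF1 were followed in bovine blastocysts whose oocytes had matured with or without insulin. All array probes whose platform gene symbol equals one of these 6 names were taken, which gave 9 of 43794 probes for 6 of 15229 named genes. EMD had 4 probes and the other genes had 1 each. Of the 9 probes, 7 passed a detection filter that 29384 of all probes passed. The genes were chosen by name with the insulin over control log2 ratio of LMNA on these same arrays already known. Their log2 ratios of insulin over control are therefore given as a description, with no test.

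The nuclear lamina is a filament meshwork that lines the inner nuclear membrane and anchors chromatin. B-type lamins, from LMNB1 and LMNB2, are made in nearly all cells, whereas A-type lamins, spliced from LMNA, are scarce in many early embryonic cells and become more abundant in differentiating ones. Emerin (EMD) and the lamin B receptor (LBR) sit in the inner nuclear membrane and tether the lamina, and the barrier-to-autointegration factor (BANF1) links emerin and related proteins to DNA.

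The oocytes came from slaughterhouse ovaries and were matured, fertilised and cultured in vitro, per the labels. Bovine insulin was present in the maturation medium at 0.1 µg/ml (INS0.1) or 10 µg/ml (INS10), and the control had 0 µg/ml. Blastocyst RNA of an insulin group and control RNA were hybridised together on each of 8 2-colour Agilent arrays, 4 for each dose, and the labels describe the 4 replicates of a dose as biological. How many embryos made up a replicate was not stated, and the tests measure the spread between these RNA samples. Insulin RNA carried Cy5 on replicates 1 and 2 and Cy3 on replicates 3 and 4. The 4 arrays of a dose lay on a slide of their own, so dose and slide cannot be told apart. The labels do not say whether the same control RNA served both doses, and the INS0.1 and INS10 comparisons may share their control samples.

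Median raw intensity over all probes was 163 to 255 in Cy5 and 234 to 348 in Cy3. Between 44.1% and 58.8% of probes exceeded the mean plus 2 SD of negative control spots in Cy5, and 51.6% to 58.7% did in Cy3. The INS0.1 array of replicate 1 lay apart from the rest. For the 128 probes (0.436%) that passed the limma test at INS10 (adjusted p under 0.05), the median log2 ratio was 0.12 on INS0.1 replicate 1 against 0.81 to 0.98 on the other 3 INS0.1 arrays. Values of LMNA and SEC13 that rest on this array are also given without it. In whole-blastocyst RNA, a different share of cells of a type and a different amount of transcript per cell cannot be told apart.

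LMNA, which encodes lamins A and C, was measured by probe EMBV3_24179, and which of the spliced forms this probe matches was not analysed here. The LMNA ratio was 0.11, 1.15, 2.12 and 1.30 on the log2 scale on INS0.1 replicates 1 to 4. At INS10 it was 1.63, 1.34, 1.77 and 1.02. INS0.1 replicate 1 lay close to 0 and the other 7 arrays lay at or above 1.02, with replicate 3 the highest at both doses. The mean log2 ratio was 1.17 ± 0.83 (SD, n = 4) at INS0.1 and 1.44 ± 0.33 (SD, n = 4) at INS10. In the fit over both doses it was 1.31 (SE 0.15), and no kept probe had a higher value. Without INS0.1 replicate 1 the INS0.1 value was 1.50 (SE 0.21) and the mean of both doses 1.47 (SE 0.14), and 2 probes were higher.

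LMNA was the only member with a positive ratio on 8 of 8 arrays, as 391 of 29384 kept probes were (1.33%), and no member was negative on 8 of 8 (0.616% of kept probes). Since the members were grouped with this contrast in view, nothing is read from that count. The ratios in the authors' deposited table were 0.10, 1.11, 2.02 and 1.30 at INS0.1 and 1.45, 1.34, 1.76 and 0.92 at INS10. With the scanner's mean pixel intensity of each spot in place of the median, they were 0.02, 1.09, 1.82 and 1.08 at INS0.1 and 1.38, 1.01, 1.88 and 0.52 at INS10. The order of the INS0.1 arrays kept replicate 1 lowest and replicate 3 highest in all 3 versions.

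For the LMNA probe, 16 of 16 readings (8 arrays with 2 channels each) exceeded the detection limit and none was saturated. In control RNA the probe read only 1.23 (INS10 replicate 1), 1.36 (INS10 replicate 4) and 1.52 (INS0.1 replicate 4) times that limit. Its log2 level in insulin RNA was 9.13, 10.45, 11.51 and 9.71 on the INS0.1 arrays and 9.57, 10.21, 11.18 and 8.89 on the INS10 arrays. Its log2 level in the control RNA of the same arrays was 9.02, 9.29, 9.39 and 8.41 at INS0.1 and 7.94, 8.87, 9.41 and 7.87 at INS10. Control RNA varied in the same order as insulin RNA on the INS10 arrays, with replicate 3 highest and replicate 4 lowest in both. Across arrays the levels therefore overlapped: the lowest insulin level of a slide lay below the highest control level at both doses. Insulin levels that all exceeded the control levels of their slide were found for 0.687% of kept probes at INS0.1 and 1.26% at INS10, and LMNA was in neither group. The separation of LMNA was within arrays, where insulin and control RNA were read from the same spot.

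The spread of the LMNA ratio among arrays of a dose was also wide. Its pooled within-dose SD was 0.63 on the log2 scale, above that of 95.2% of kept probes, whose median was 0.35. The SE of its fitted ratio is moderated by limma, which draws it towards the spread of a typical probe, so it understates this spread. The other 6 kept member probes had within-dose SDs of 0.25 (EMD probe 2) to 0.45 (LMNB1).

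**Figure D1:**
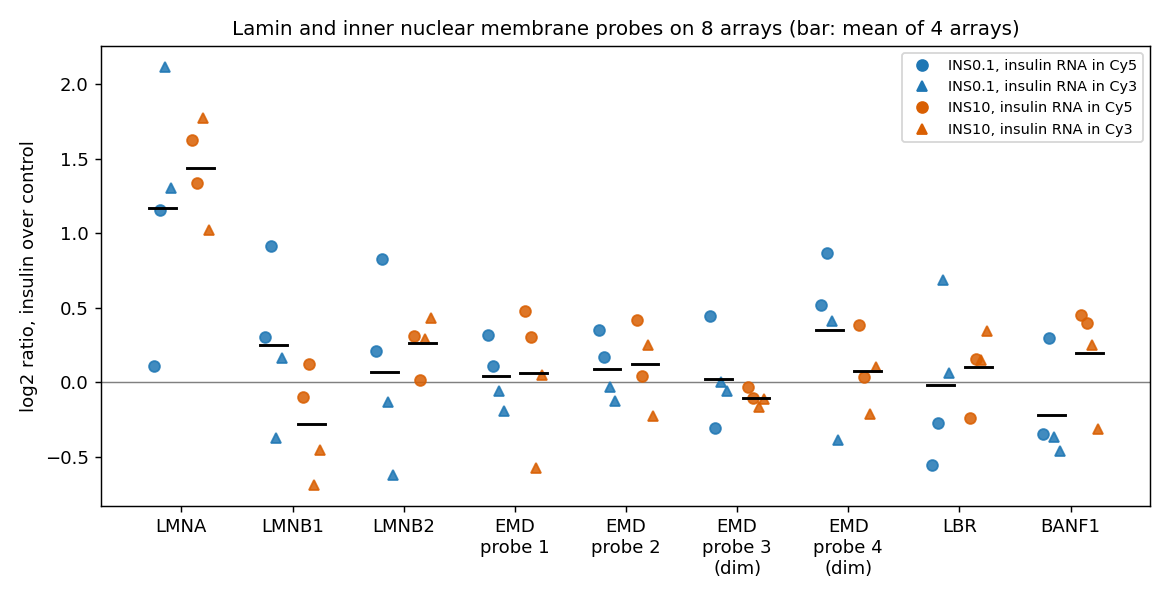
Log2 ratio of insulin over control (vertical axis) for the 9 probes on each of 8 arrays. Blue points are INS0.1 and orange points INS10, circles are arrays with insulin RNA in Cy5 and triangles those with insulin RNA in Cy3, and black bars are means of 4 arrays. LMNA lies above 1 on 7 of 8 arrays and at 0.11 on INS0.1 replicate 1, while every other probe has arrays on both sides of 0. EMD probes 3 and 4 did not pass the detection filter.

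LMNB1 encodes lamin B1 and was measured by a single probe, EMBV3_31782, detected in 16 of 16 readings. Its log2 ratio was 0.30, 0.91, −0.37 and 0.16 on INS0.1 replicates 1 to 4 and −0.10, 0.13, −0.69 and −0.45 on INS10 replicates 1 to 4. On 4 of 8 arrays the ratio was positive, and the replicates of both doses lay on both sides of 0. The mean was 0.25 ± 0.53 (SD, n = 4) at INS0.1 and −0.28 ± 0.36 (SD, n = 4) at INS10. Over both doses the log2 ratio was −0.01 (SE 0.11), at percentile 46.6 of all kept probes. The LMNB1 level in control RNA was 11.06, 10.64, 11.58 and 11.52 on the INS0.1 slide and 10.95, 11.14, 12.06 and 12.10 on the INS10 slide, higher on the replicates where control RNA was in Cy5.

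LMNB2 encodes lamin B2, and its probe EMBV3_40336 was dim. It exceeded the detection limit in 5 of 16 readings: 2 of 4 in INS0.1 insulin RNA, 1 of 4 in INS10 insulin RNA, 2 of 4 in control RNA on the INS0.1 slide and 0 of 4 in control RNA on the INS10 slide. It thus passed the filter by 1 reading, and no fold is given at INS10, where control RNA was not above the limit on any array. The log2 ratio was 0.21, 0.83, −0.13 and −0.62 at INS0.1 and 0.31, 0.02, 0.29 and 0.43 at INS10. All 4 INS10 values were positive and fell inside the INS0.1 range. The mean over both doses was 0.17 (SE 0.13), at percentile 87.4 of kept probes, most readings behind it being near background.

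EMD encodes emerin, a LEM-domain protein of the inner nuclear membrane. Its brightest probe, EMD probe 1 (EMBV3_00982), was detected in 16 of 16 readings. The log2 ratio of that probe was 0.32, 0.11, −0.06 and −0.19 at INS0.1 and 0.48, 0.30, −0.58 and 0.05 at INS10. EMD probe 2 (EMBV3_03903), detected in 14 readings, gave 0.35, 0.17, −0.03 and −0.13 at INS0.1 and 0.42, 0.04, 0.25 and −0.22 at INS10. Both probes had 5 of 8 arrays positive, with means over both doses of 0.05 (SE 0.11) for probe 1 and 0.11 (SE 0.11) for probe 2. On the INS0.1 arrays the 2 probes had the same sign and nearly the same value on each array, whereas on INS10 replicates 3 (−0.58 against 0.25) and 4 (0.05 against −0.22) they had opposite signs. EMD probes 3 (EMBV3_05825) and 4 (EMBV3_35620) exceeded the limit in 3 of 16 readings each and were not fitted. Their log2 ratios ran from −0.30 to 0.45 for probe 3 and from −0.39 to 0.87 for probe 4.

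The EMD probes also differed between slides in opposite directions. In control RNA, the level of EMD probe 1 was 7.88 to 8.17 on the INS0.1 slide and 8.33 to 9.14 on the INS10 slide. In the same RNA, the level of EMD probe 2 was 7.73 to 8.13 on the INS0.1 slide and 7.14 to 7.54 on the INS10 slide. The 4 control levels of a slide did not overlap those of the other slide for either probe, as for 10.9% of kept probes. Insulin RNA followed the slides in the same directions, with means of 8.06 and 8.89 for EMD probe 1 and 8.01 and 7.54 for EMD probe 2 at INS0.1 and INS10. Levels of EMD between doses therefore depended on the probe, while the within-array ratios of both probes averaged close to 0.

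LBR encodes the lamin B receptor, a multispanning inner nuclear membrane protein that also has sterol reductase activity. Its probe EMBV3_08693 was detected in all readings. The log2 ratio was −0.55, −0.27, 0.68 and 0.06 at INS0.1 and −0.24, 0.16, 0.15 and 0.34 at INS10. The mean was −0.02 ± 0.53 (SD, n = 4) at INS0.1 and 0.10 ± 0.25 (SD, n = 4) at INS10, with 0.04 (SE 0.11) over both doses. The ratio was negative on 3 of the 4 arrays with insulin in Cy5 and on none of the 4 with insulin in Cy3.

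BANF1 encodes the DNA-bridging factor that helps emerin and other LEM-domain proteins gather at chromatin after mitosis. Its probe EMBV3_21838, detected in all readings, gave log2 ratios of −0.34, 0.30, −0.37 and −0.46 at INS0.1 and 0.45, 0.40, 0.25 and −0.31 at INS10. INS0.1 had 3 negative arrays and INS10 had 3 positive arrays. The mean was −0.22 ± 0.35 (SD, n = 4) at INS0.1 and 0.20 ± 0.35 (SD, n = 4) at INS10, and −0.01 (SE 0.11) over both doses. BANF1 and LMNB1 thus had means of opposite sign at both doses, and each averaged close to 0 over the 8 arrays.

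**Figure D2:**
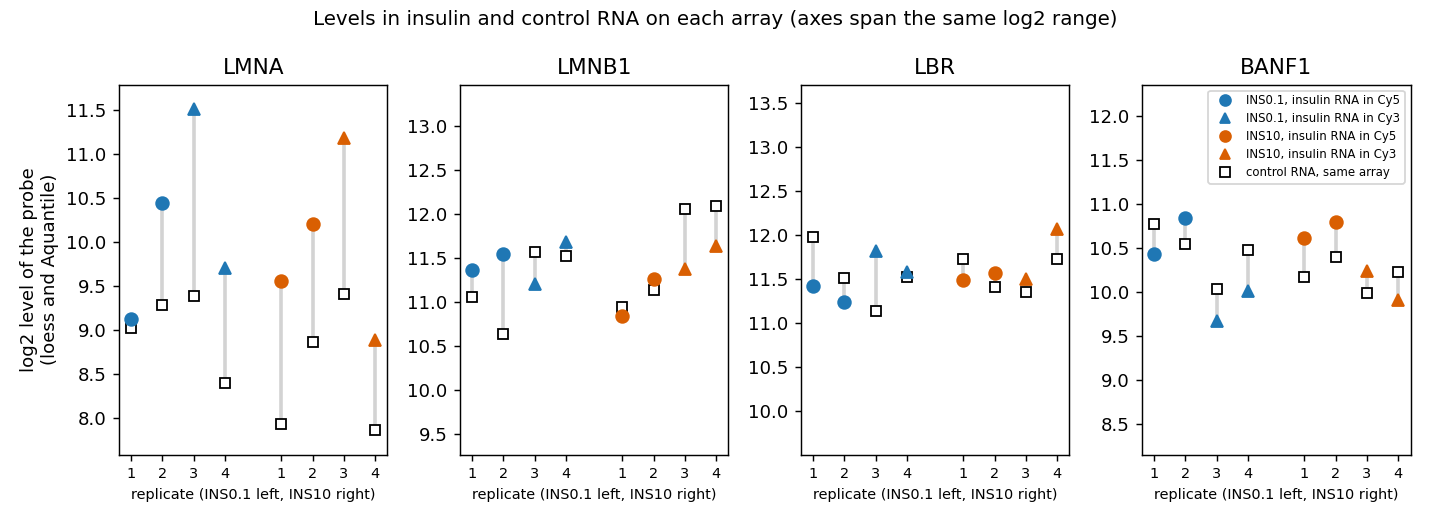
Log2 level of the LMNA, LMNB1, LBR and BANF1 probes (vertical axes, all spanning the same log2 range) in insulin RNA (coloured) and in the control RNA of the same array (open squares), by replicate of INS0.1 (left) and INS10 (right). Each grey line joins the 2 channels of an array. For LMNA the coloured point is above the square on all arrays, by the least on INS0.1 replicate 1, while for the other 3 genes the order changes between arrays. Levels may be compared within a probe, not between probes.

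LMNA was next set against each partner on the same array, by subtracting the partner's log2 ratio from that of LMNA. Against LMNB1 the difference was −0.20, 0.24, 2.49 and 1.14 at INS0.1 and 1.72, 1.21, 2.46 and 1.48 at INS10. Against the mean of LMNB1 and LMNB2 it was −0.15, 0.28, 2.37 and 1.53 at INS0.1 and 1.52, 1.27, 1.97 and 1.04 at INS10. INS0.1 replicates 1 and 2 were the lowest of the 8 arrays in both, since LMNA was near 0 on replicate 1 and LMNB1 had its highest ratio on replicate 2. The LMNB2 probe was below the detection limit in both channels of INS0.1 replicate 2 and of INS10 replicates 1, 2 and 3. Its control reading was also below the limit on INS0.1 replicate 3 and INS10 replicate 4, and its insulin reading on INS0.1 replicate 4. On those arrays its part of the B-type mean is a reading near background. The mean against both B-type lamins was 1.01 ± 1.15 (SD, n = 4) at INS0.1, where the spread exceeded the mean, and 1.45 ± 0.40 (SD, n = 4) at INS10. Without INS0.1 replicate 1 the INS0.1 mean was 1.39 ± 1.05 (SD, n = 3). LMNA exceeded the B-type mean on 7 of 8 arrays.

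LMNA was set against the membrane and chromatin partners in the same way. It exceeded LBR by 0.66 to 1.87 and BANF1 by 0.45 to 2.48 on the log2 scale, on 8 of 8 arrays each. Against EMD probe 1 it was higher on 7 of 8 arrays, with −0.21 on INS0.1 replicate 1. Since LMNA enters every one of these differences and was known to be high, their signs are a description and no test was made.

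**Figure D3:**
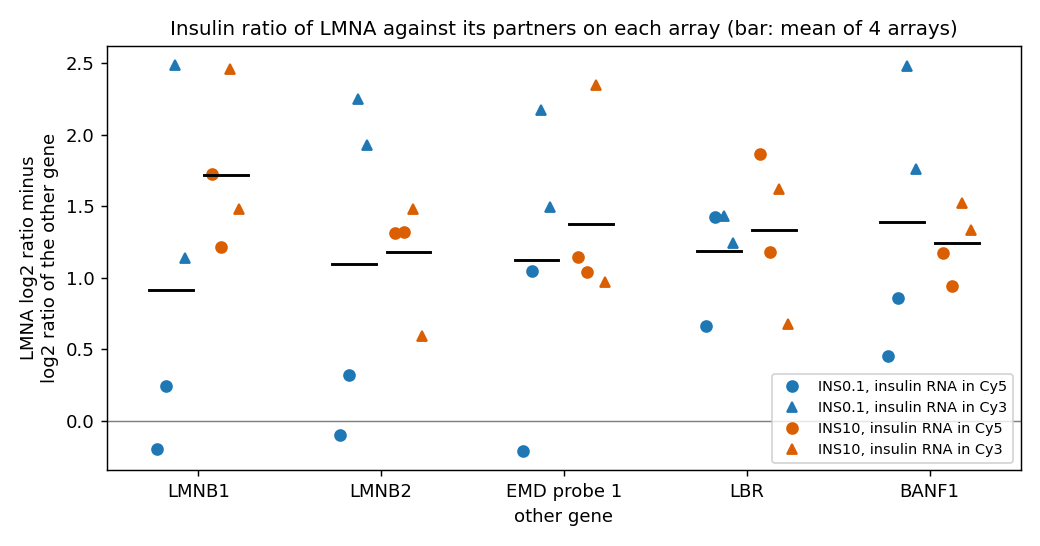
LMNA log2 ratio minus that of the other gene on the same array (vertical axis), for 5 other probes. Colours and shapes are as in the plot of ratios by array, and black bars are means of 4 arrays. Means at both doses are positive against every partner, and values below 0 occur on INS0.1 replicate 1 against LMNB1, LMNB2 and EMD probe 1.

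The difference between doses was not used to choose the genes and was tested with limma over all 29384 kept probes. No probe passed (0 of 29384), and 845 (2.88%) had an unadjusted p under 0.05. LMNB1 was lower at INS10 than at INS0.1 for each of the 4 replicate numbers, by −0.40, −0.79, −0.32 and −0.62, and its fitted difference was −0.53 (SE 0.22, 95% interval −0.995 to −0.07). Its unadjusted p was 0.0270, and limma's adjusted p was 0.9999. A probe was lower for 4 of 4 numbers in 5.50% of cases. BANF1 was higher at INS10 for 4 of 4 numbers, by 0.80, 0.10, 0.61 and 0.15, as 5.06% of kept probes were, with a fitted difference of 0.42 (SE 0.22, 95% interval −0.05 to 0.88). Its unadjusted p in limma was 0.0758. Neither difference passed the test over all probes.

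LMNA itself differed between doses by 0.27 (SE 0.29, 95% interval −0.34 to 0.88), with 2 replicate numbers higher and 2 lower. Replicate 1 contributed 1.52 of difference and the other 3 numbers 0.19, −0.34 and −0.28. Without INS0.1 replicate 1 the difference turned to −0.06 (SE 0.27). LMNB2, LBR and the EMD probes had fitted differences of 0.02 to 0.19. The intervals of these probes reached from −0.43 to 0.72 at their ends, so a dose difference of that size cannot be left out. For 0 of the 7 kept probes did the 4 INS10 ratios lie apart from the 4 INS0.1 ratios, against 1.16% of kept probes.

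Dye orientation moved with the sign of the members' ratios. With insulin RNA in Cy5, the mean log2 ratio over 4 arrays was 0.31 for LMNB1, 0.34 for LMNB2, 0.30 for EMD probe 1, 0.24 for EMD probe 2 and 0.20 for BANF1. With insulin RNA in Cy3, it was −0.34, −0.01, −0.19, −0.03 and −0.22 for the same probes. LBR ran the other way, from −0.23 in Cy5 to 0.31 in Cy3. Only LMNA kept its sign, at 1.06 in Cy5 and 1.55 in Cy3. The 6 other kept probes thus had opposite means in the 2 orientations, as 58.7% of kept probes did.

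The dye effect in the fit, which is positive where Cy5 read higher than Cy3, was 0.32 (SE 0.11) for LMNB1, 0.25 (SE 0.11) for EMD probe 1, −0.27 (SE 0.11) for LBR and −0.25 (SE 0.15) for LMNA. None of the 7 probes passed limma's test of that effect, with adjusted p from 0.0955 for LMNB1 to 0.488 for EMD probe 2, whereas 5.23% of kept probes did. The unadjusted p was under 0.05 for LMNB1 (0.00860), LBR (0.0274) and EMD probe 1 (0.0338), as for 21.0% of kept probes. Dye orientation and replicate numbers 1 and 2 against 3 and 4 cannot be told apart.

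**Figure D4:**
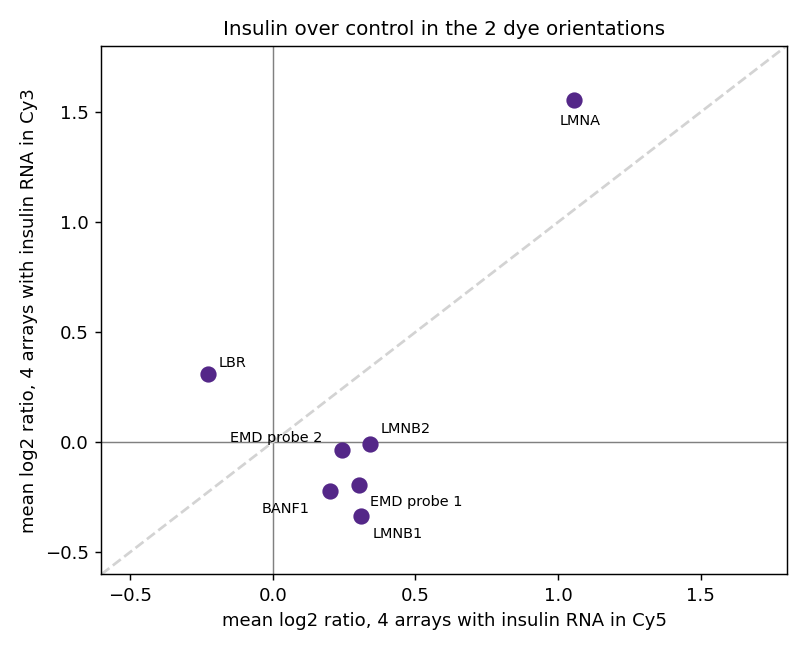
Mean log2 ratio of insulin over control on the 4 arrays with insulin RNA in Cy5 (horizontal axis) and on the 4 with insulin RNA in Cy3 (vertical axis) for the 7 kept probes. The dashed line marks equal values. LMNA lies at 1.06 and 1.55, and the other 6 probes have opposite signs in the 2 orientations.

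The wider nuclear envelope was read from 6 lists of 82 genes, of which 74 had a probe and 67 had one that passed the filter. In the mean of both doses, RCE1 and SEC13 rose (limma, adjusted p under 0.05), none fell and 65 did not pass, while 11 had an unadjusted p under 0.05 (11.8% of all named genes had). Among all 11718 named genes, 2.12% rose and 0.196% fell, and the 2.99% of the 67 genes that rose is close to that background. The median log2 ratio of the 67 genes was −0.06, against −0.01 for all named genes, and 20 of 67 were positive, against 47.9% of named genes. At INS0.1 none of the 67 passed limma's test and 7 had an unadjusted p under 0.05, against 0.145% of named genes that rose and 8.80% with such a p. At INS10 SEC13 rose alone (0.580% of named genes rose). With all arrays SEC13 was at log2 1.05 at INS0.1 (SE 0.24, limma adjusted p = 0.0914). Without INS0.1 replicate 1 it passed there (log2 1.52, SE 0.21, limma adjusted p = 0.000838). The number of all probes that passed at INS0.1 then went from 32 (0.109%) to 218. That array was set apart by its low ratios on probes that passed at INS10, SEC13 among them. The call of SEC13 without it is therefore no independent support. With spot means no kept probe passed in the mean of both doses, and 3331 had an unadjusted p under 0.05, so no call of a gene can be read in that setting.

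Pairing by replicate number changed these counts. With the number as a fixed block and separate dye effects on the slides, 5 genes passed in the mean of both doses, 3 at INS0.1 and 2 at INS10. The additions for the mean were CTDNEP1 (limma adjusted p = 0.00928), the torsin gene TOR1A (0.0334) and, as a lower gene, SYNE2 (0.000309). SYNE2 was at −1.77 and −2.32 on replicate 4 of INS0.1 and INS10, against −0.41 to 0.17 on the other arrays. Its low mean thus rests largely on replicate number 4, a difference between numbers that the fixed block takes out of the error. With the number as a random block, the count for the mean stayed at 2, with RCE1 just under the threshold (limma adjusted p = 0.0495). The fixed block removes variation between replicate numbers from the error of the mean, and over all probes 1252 passed in place of 484 (1.65%), against 368 with the random block.

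Lamin precursors are farnesylated and trimmed at their CaaX end, by the farnesyltransferase subunits FNTA and FNTB, the protease RCE1 and, for prelamin A, ZMPSTE24. RCE1 had log2 ratios of 0.31, 0.63, 0.42 and 0.87 at INS0.1 and 0.95, 0.35, −0.03 and 0.60 at INS10, positive on 7 of 8 arrays. It rose 1.42-fold in the mean of both doses (log2 0.51, SE 0.12, limma adjusted p = 0.0275). That call was lost without INS0.1 replicate 2 (0.0744), 3 (0.0653) or 4 (0.113), without INS10 replicate 1 (0.149), 2 (0.0626) or 4 (0.0874). ZMPSTE24, FNTA and FNTB had log2 ratios of 0.09, −0.07 and 0.11, with SEs of 0.10 to 0.12, and did not pass. ICMT, the methyltransferase of this pathway, had no probe under that symbol.

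Among 28 nuclear pore genes, SEC13 rose and 27 did not pass, with a median log2 ratio of −0.11 and 7 positive. SEC13 is shared by the outer ring of the pore and by the COPII coat of secretory vesicles. Its log2 ratio was −0.35, 1.43, 1.84 and 1.29 at INS0.1 and 1.29, 1.50, 1.86 and 0.72 at INS10, with INS0.1 replicate 1 the lowest array and replicate 3 the highest at both doses, as for LMNA. The mean was 1.20 (SE 0.17), a 2.29-fold rise (limma adjusted p = 0.000448). The 4 probes of SEC13 disagreed: the other 3 had log2 ratios of 0.30, 0.66 and −0.05, and the mean of all 4 was 0.53. The probe at 0.66 also passed (limma adjusted p = 0.00102), and those at 0.30 and −0.05 did not (0.334 and 0.933). Without INS0.1 replicate 1 the mean of the brightest probe was 1.43 (SE 0.14). NUP155 (−0.32, SE 0.11), a scaffold nucleoporin, and TPR (−0.30, SE 0.12), a protein of the nuclear basket, did not pass.

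By the brightest probe of a gene, no gene passed among 11 inner nuclear membrane and lamina partners, 4 genes of the LINC complex and torsins, 7 lamina-associated chromatin factors or 13 genes of envelope breakdown and resealing. In these 4 lists 1, 2, 1 and 2 genes had an unadjusted p under 0.05 in limma, against 11.8% of all named genes. The median log2 ratios of the lists were −0.12, −0.02, −0.04 and −0.03, and 2, 2, 2 and 4 genes were positive, against 47.9% of named genes. LEMD3, an inner membrane LEM-domain protein like emerin, was at −0.30 by its brightest probe (SE 0.11, limma adjusted p = 0.224). The other kept probes of LEMD3 were at −0.03, 0.00 and 0.21. SYNE2, the nesprin that ties the nucleus to the cytoskeleton, was at −0.61 (SE 0.19, adjusted p = 0.141), and its values on replicate 4 were −1.77 at INS0.1 and −2.32 at INS10 against −0.41 to 0.17 on the other 6 arrays. The other kept probe of SYNE2 was at −0.35 (limma adjusted p = 0.531). CHMP3, an ESCRT-III subunit of envelope resealing, was at 0.01 by its brightest probe, and of its other 3 probes 1 passed (0.53, adjusted p = 0.0215) and the remaining ones were at −0.04 and 0.25. CTDNEP1, a nuclear envelope phosphatase listed on the platform as DULLARD, was at 0.43 (SE 0.11, adjusted p = 0.0610) and positive on 7 of 8 arrays.

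**Figure D5:**
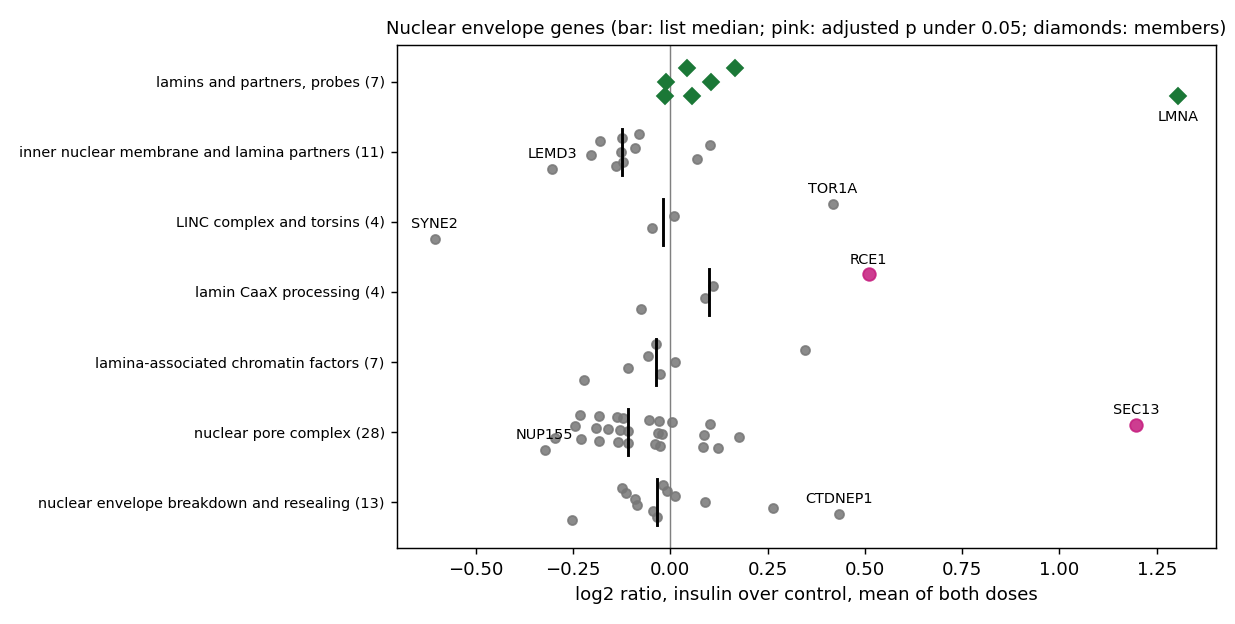
Log2 ratio of insulin over control in the mean of both doses (horizontal axis) for the 7 kept lamin and partner probes (green diamonds) and for 67 nuclear envelope genes in 6 lists (circles, number tested in brackets). Black bars are list medians, and pink circles have a limma adjusted p under 0.05, namely RCE1 and SEC13. LMNA lies at 1.31, while the other member probes lie between −0.01 and 0.17.

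Markers of cell types that a blastocyst sample could hold were read on the same arrays. The trophectoderm markers GATA2 (log2 0.57) and TEAD4 (0.69) rose, 2 of 11, and so did the inner cell mass marker SOX2 (0.69), 1 of 6, the steroidogenic cumulus and granulosa enzyme CYP11A1 (0.84), 1 of 10, and the stromal filament gene VIM (1.03), 1 of 6. The sperm protamine PRM1 fell (−0.64), 1 of 5, and 0 of 5 oocyte markers passed (1 with an unadjusted p under 0.05). These are limma calls of the brightest probe in the mean of both doses, where 2.12% of all named genes rose and 0.196% fell. The other kept probe of TEAD4 was at 0.15 and did not pass (limma adjusted p = 0.714). With spot means and limma's trend and robust options, which left 207 of all probes, the 6 genes lost their calls (adjusted p of 0.0521 to 0.223). VIM also lost its call with those options on spot medians (0.0525). GATA2 lost its call too without INS0.1 replicate 3 or 4 or INS10 replicate 1 or 2 (0.0578 to 0.0879).

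Summed over the genes of a list, the normalised trophectoderm marker intensity was 151996 to 180767 at INS0.1, 140276 to 185024 at INS10 and 127198 to 170166 in control RNA. The cumulus and granulosa sum was 16141 to 24210 at INS0.1, 15609 to 22014 at INS10 and 11919 to 22088 in control RNA. The stromal sum was 43580 to 61510 at INS0.1, 44745 to 64976 at INS10 and 49769 to 62891 in control RNA. Such sums are carried by the brightest genes, among them KRT8, KRT18 and FN1, and a change of a dimmer gene such as TEAD4 or VIM hardly moves them. The median raw readings of KRT8, KRT18 and FN1 were 59465, 49364.5 and 57719.5, high in the scanner's range, which limits how far they can rise. The inner cell mass sum was 16262 to 23384 at INS0.1, 18560 to 29014 at INS10 and 17344 to 23673 in control RNA. The oocyte sum was 6168 to 10705 at INS0.1, 7659 to 11401 at INS10 and 7754 to 14294 in control RNA, and the sperm sum was 1126 to 1630, 871 to 1304 and 1136 to 1955 in the same order. The ranges of insulin and control RNA overlapped for all 6 lists, as the LMNA levels did across arrays. In the cumulus and granulosa, oocyte, sperm and stromal lists, detection differed widely between genes. The cumulus genes INHA and FST, the oocyte genes GDF9, ZP4, NLRP5 and ZAR1, the sperm gene PRM2 and the stromal gene PDGFRB exceeded the detection limit in 0 of 16 readings. Other genes of these lists exceeded it in 16 of 16, namely CYP11A1, STAR, HSD3B1 and PTGS2 (cumulus and granulosa), OOEP and DPPA3 (oocyte), PRM1 (sperm), and VIM, COL1A2 and FN1 (stroma). The remaining genes of these lists lay between, from 1 reading (AMH) to 15 (INHBA, TNP1 and THY1), with 14 for MOS and TNP2 and 13 for CYP19A1. The part of these cell types in the LMNA ratio was not tested.

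Named genes whose 8 log2 ratios ran most like those of LMNA were KEAP1 (Pearson r = 0.987), an adaptor that holds the transcription factor NRF2 in check, BAIAP2 (0.971), MRM1 (0.966), GADD45GIP1 (0.962) and HOOK3 (0.956). They were taken from 11670 genes over 8 arrays that share dyes and slides, and 28 genes had r over 0.9. Those most like LMNB1 were SLAMF6 (0.965), ATP6V1F (0.963), SERPING1 (0.952), CYB561D1 (0.951) and PRKCQ (0.950), with 32 genes over 0.9. No gene appeared in both sets of 5. The mean log2 ratio of KEAP1 was 0.89 (SE 0.12), with 8 of 8 arrays positive.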

How the data were processed

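The members and gene lists were chosen with earlier results of these data known. The deposited files of each array give, per the file headers, the median and mean intensity of every spot and of its background in both channels. Per the labels, RNA was amplified in 2 rounds before it was labelled at guanine bases, and both steps can alter measured ratios. Scanner software and genome build were not given in the sources used here. The authors' deposited table of log2 ratios, whose steps are not stated, correlated at 0.971 to 0.995 with the ratios computed here, with array medians of −0.02 to 0.01, and served as an alternative.

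Median intensities were corrected with normexp (offset 50) and normalised within arrays by loess in limma 3.58.1 (R 4.3.3), with control and ignored spots at weight 0. The limit of detection was the mean plus 2 SD of 153 negative control spots, and probes over it in at least 4 of 16 readings were kept. Channel levels came from loess followed by Aquantile scaling of average intensities, and may be compared within a probe only. The fit had an insulin effect for each dose and 1 dye effect, and p-values from lmFit and eBayes were adjusted over all kept probes by Benjamini and Hochberg (threshold 0.05). SEs of fitted values are the moderated ones of eBayes. Replicate counts limit the precision of arrays.

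Arrays of the same replicate number deviated together from their dose means (r = 0.312, 0.221, 0.257 and 0.249 for numbers 1 to 4). Pairing by number was therefore run as an alternative, with a fixed or a random block. The fit behind the values reported had no block, so its SEs and p-values treat the 8 arrays as independent. For list genes the brightest kept probe stood for the gene. Genes named were all members, list genes that passed, up to 3 more of a list by smallest p, and the 5 most like LMNA or LMNB1. The fit was also run on simulated data drawn with independent arrays, so that run does not cover arrays that deviate together by number. Alternatives covered the dye term, block, centring, scaling, background, filter, spot means and each array left out, with spot means, the random block and every alternative for the marker genes chosen after seeing the data.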

Additional observations from a re-analysis of the deposited data

Results flagged for a closer look

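Of 66 sets of 4 values tested for a sample far from the other 3, 5 had such a sample, and chance gives about 1 in 20. BANF1 had a log2 ratio of 0.30 on INS0.1 replicate 2, against −0.46 to −0.34 on the other 3 arrays of that dose. LMNA minus EMD probe 1 was 2.35 on INS10 replicate 3, against 0.97 to 1.14 on the other INS10 arrays. The level of EMD probe 2 in control RNA was 7.14 on INS10 replicate 1, against 7.49 to 7.54 on the others, and its level in insulin RNA was 7.60 on INS0.1 replicate 4, against 8.10 to 8.19. The level of LBR in insulin RNA was 12.07 on INS10 replicate 4, against 11.49 to 11.57 on the other INS10 arrays.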

How the results depend on the processing

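The LMNA log2 ratio in the mean of both doses was 1.10 (spot means) to 1.47 (without INS0.1 replicate 1) over 21 alternatives, and its excess over the mean of LMNB1 and LMNB2 was 1.06 to 1.41 over 20. No kept probe exceeded LMNA as reported, while 4 did with spot means and up to 5 with an array left out. The LMNA dose difference turned to −0.0558 without INS0.1 replicate 1 (leave-one-out range −0.0558 to 0.549). No probe passed the dose test in any alternative. Of the member probes, 1 passed the dye test with median centring, 2 with spot means and 1 with spot means and limma's trend and robust options.

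The count of nuclear envelope genes in the mean of both doses was 1 without the dye term, with median centring, with a normexp offset of 16 and with spot means and limma's trend and robust options, 0 with spot means, where 0 of all probes passed, and 1 to 3 with an array left out. With the replicate number as a fixed block it was 5, with 3 at INS0.1 and 2 at INS10, and the pairing changed no dose call of a member. At INS0.1 it was 0 to 1 with an array left out, and 1 only without INS0.1 replicate 1. Over all probes, 0 passed at INS0.1 without INS0.1 replicate 2 or 3, which fixed the count of 0, and 1 passed without replicate 4. Without the dye term, with scaling between arrays, with averaged probes and with either use of spot means, 0 also passed at that dose. At INS10 the count of nuclear envelope genes was 0 without the dye term, with the offset of 16, with all probes of a gene averaged, with either use of spot means, and 0 to 1 with an array left out. Apart from the averaged probes, where 25 genes passed, 0 of all probes passed at INS10 in those named settings and without INS10 replicate 1, 2 or 3, which fixed the count of 0. RCE1 also missed the threshold without the dye term (adjusted p = 0.0667), with median centring (0.0526), the offset of 16 (0.0575) and spot means and limma's trend and robust options (0.0586). Without background correction the control levels moved to 7.99 for EMD probe 2 and 7.70 for LMNB2, both near the detection limit.

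Signs of values near 0 turned as follows, with leave-one-out ranges in brackets. The dose difference of EMD probe 1 was −0.0336 with median centring (−0.0743 to 0.177, below 0 without replicate 2 of INS0.1 or without replicate 1 or 4 of INS10). That of LBR was −0.00227 with spot means (−0.00684 to 0.297), and that of LMNB2 turned without INS0.1 replicate 4 (−0.0169 to 0.425). In the mean of both doses, SUN5 was 0.0117 from the authors' deposited table (−0.115 to 0.00480), FNTA was 0.00321 with spot means (−0.155 to 0.0344), and FNTB turned without INS0.1 replicate 3 (−0.0178 to 0.170). Causes were not tested. LMNB2 and EMD probes 2 to 4 are limited by signal near background, and the 4 arrays of a dose limit every comparison.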

Other observations

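The genes next to LMNA in the gene order of RefSeq were not called higher or lower with insulin by limma in the mean of both doses. Of the 5 genes on one side, SEMA4A was at a log2 ratio of −0.01, SLC25A44 at −0.17, PMF1 at 0.14, BGLAP at 0.14 and PAQR6 at −0.02. On the other side RAB25 was at 0.22, LAMTOR2 at 0.12 and UBQLN4 at 0.12, while the probe of MEX3A did not pass the detection filter. The smallest adjusted p among these 8 genes was 0.622.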
